A study of Mus musculus with 4 samples.

Results

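Peaks in the introns of protein-coding genes that recurred between the immunoprecipitates of 3 m6A reader proteins were examined in mouse bone marrow cells. A peak was taken where its summit lay in no annotated exon, inside a GENCODE M21 protein-coding gene and more than 2000 nt from the 5' end of that gene. It also had to overlap a peak of at least 1 other reader by 1 bp or more. This held for 1792 of the 19866 listed peaks. By reader these were 685 of 7069 peaks in the IGF2BP2 list, 398 of 2834 in the YTHDF2 list and 709 of 9963 in the YTHDC1 list. The peaks were thus chosen by their called positions and overlaps, so overlaps and heights are given as a description.

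The study holds 4 libraries, an IGF2BP2, a YTHDF2 and a YTHDC1 immunoprecipitate and an input, each from the lineage-negative, c-Kit-positive fraction of bone marrow, which the labels call LIC. The series title speaks of leukaemia stem cells; the labels used here give neither strain, genotype nor age. All 4 came from cells cultured with IL3, IL6 and SCF and crosslinked 3 times by UV at 254 nm and 120 mJ per cm2, and each reader was pulled down with 1 commercial antibody. Each reader has 1 library, so no difference between readers or between sets of peaks has a replicate check. The input was not analysed here beyond the background that the authors' folds contain, and sequencing depth is unknown. Kit, the gene of the receptor used to select the cells, had 1 YTHDC1 peak (fold 4.91), 0 peaks in the other 2 lists and none of the shared intron peaks.

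m6A is a methyl mark placed on adenosines while RNA is being made, so it can lie in introns as well as in mature mRNA. YTHDC1 is the YTH-domain reader of the nucleus and is known for roles in splicing and in chromatin-bound RNA, whereas YTHDF2, which leads marked mRNA to decay, and IGF2BP2, which stabilises mRNA, are known mainly as cytoplasmic proteins. Introns are normally removed in the nucleus, and the exon ends beside them carry purine-rich enhancer sequences that SR proteins bind during splicing.

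Shared intron peaks were put into 2 kinds, those beside an exon and those farther away. The sequences of the exons beside the first are shown because these loci had peaks of all 3 readers in coding genes of splicing, RNA binding, signalling and protein folding. They are the first 6 by rank whose end lies fully in coding sequence. Each line gives the 50 nt of exon nearest to the intron summit, on the strand of the gene, from GENCODE M21 transcripts (GRCm38). At Ewsr1 and Hsp90aa1 this exon lies beside the YTHDF2 summit only. The IGF2BP2 and YTHDC1 summits there lay in an exon across the intron, which is not shown. Capitals mark GGAC, the core of the m6A consensus.
U2af1, chr17:31648716-31648765, minus strand, exon downstream of the summit: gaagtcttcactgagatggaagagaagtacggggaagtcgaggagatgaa
Sart1, chr19:5383024-5383073, minus strand, exon downstream: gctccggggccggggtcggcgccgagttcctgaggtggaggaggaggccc
Ewsr1, chr11:5070626-5070675, minus strand, exon upstream: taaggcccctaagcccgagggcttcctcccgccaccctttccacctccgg
Plcb2, chr2:118717278-118717327, minus strand, exon downstream: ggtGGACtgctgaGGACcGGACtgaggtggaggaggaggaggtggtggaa
Anp32b, chr4:46468738-46468787, plus strand, exon upstream: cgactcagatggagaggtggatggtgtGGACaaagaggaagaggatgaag
Hsp90aa1, chr12:110694571-110694620, minus strand, exon upstream: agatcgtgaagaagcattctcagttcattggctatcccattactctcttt
Plcb2 and Anp32b hold GGAC in this stretch and the other 4 do not. U2af1, Sart1, Plcb2 and Anp32b hold runs of GAGGAG or GAAGAG in which A and G dominate.

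Intron sequence could be read at 3 loci, where a summit lay in the 250 bases before a RefSeq transcript start, in windows that cover no annotated exon (RefSeq, GRCm38.p6). Capitals mark the 11 nt centred on the summit.
Nin, a centrosome protein gene, IGF2BP2 summit, chr12:70102855-70102955, minus strand: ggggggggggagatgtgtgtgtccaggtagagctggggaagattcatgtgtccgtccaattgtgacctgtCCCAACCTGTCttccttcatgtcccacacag
Rbbp6, a gene of pre-mRNA 3' processing, YTHDC1 summit, chr7:122970353-122970503, plus strand: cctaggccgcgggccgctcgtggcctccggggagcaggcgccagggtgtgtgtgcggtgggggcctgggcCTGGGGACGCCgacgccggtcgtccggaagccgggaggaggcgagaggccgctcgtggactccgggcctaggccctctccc
Cd47, the gene of a surface receptor that inhibits phagocytosis, YTHDF2 summit, chr16:49855404-49855503, plus strand: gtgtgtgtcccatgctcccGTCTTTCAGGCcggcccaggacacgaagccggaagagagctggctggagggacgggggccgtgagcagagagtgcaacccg
The Nin summit lay 26 nt before an annotated exon and its window ends at that exon, whereas the Rbbp6 summit lay 136 nt from the nearest exon. The Nin peaks had IGF2BP2, YTHDF2 and YTHDC1 folds of 6.31, 5.76 and 11.5. A fold is the authors' ratio of the pileup at a summit to the background around it, with 1 taken as added to both. Over an almost empty background it is near the pileup plus 1, such as 3.94 at a pileup of 3 in the IGF2BP2 list. Folds are used here only within a list. At Rbbp6 the folds were 5.94 for IGF2BP2 and 12.1 for YTHDC1, and at Cd47 they were 13.4 (IGF2BP2), 8.65 (YTHDF2) and 15.7 (YTHDC1). The IGF2BP2 peak at Cd47 and the YTHDF2 and YTHDC1 peaks at Nin had their summits in exons.

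In the lists as deposited, most deep intron peaks of YTHDF2 coincided with another list, and most of YTHDC1 did not. Of 543 deep intron YTHDF2 peaks, 73.3% (exact Clopper-Pearson 95% interval 69.4 to 77.0) overlapped a peak of another reader, against 78.6% of the whole YTHDF2 list. For IGF2BP2 the share was 41.9% of 1634 (39.5 to 44.4), against 46.6% of its list, and for YTHDC1 it was 22.9% of 3101 (21.4 to 24.4), against 31.1%. All intervals here cover counting error only. Deep introns thus shared peaks less often than each list as a whole, which includes them. Outside deep introns the shares were 79.9% for YTHDF2, 48% for IGF2BP2 and 34.9% for YTHDC1, the widest gap being that of YTHDC1. The share was highest in the shortest list. With each list shortened to the same number of peaks by highest −log10 q, the YTHDF2 share was 51.7% (47.5 to 56.0), the IGF2BP2 share 54.9% (50.7 to 59.1) and the YTHDC1 share 33.6% (30.3 to 37.0), so the lead of YTHDF2 was lost.

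The shared peaks and their partners formed 959 separate loci in 737 genes. IGF2BP2 and YTHDC1 met at 462 loci, all 3 readers at 279, IGF2BP2 and YTHDF2 at 142, and YTHDF2 and YTHDC1 at 76. At 340 loci at least 1 peak was a partner that does not itself qualify, and 424 of these 425 partner summits lay in an annotated exon. The best overlap of a shared peak with its partner had a median of 112 bp, and 68 peaks (3.79%) overlapped by less than 50 bp. Where both peaks of a pair were shared intron peaks, their summits lay a median of 12 nt apart for IGF2BP2 and YTHDF2 (234 pairs), 15 nt for IGF2BP2 and YTHDC1 (522 pairs) and 12 nt for YTHDF2 and YTHDC1 (226 pairs). With pairs added in which only 1 of the peaks qualified, mostly beside a summit in an exon, the medians were 23, 24 and 21 nt in the same order of pairs. Pairs of overlapping peaks elsewhere had 15, 18 and 16 nt, between these values, so no direction is drawn from them. At same-base summits the computed local backgrounds of 2 lists kept 1 ratio within 1% in 31 of 31, 36 of 36 and 19 of 19 cases, so a low background at a place enters the fold in every list there.

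By the distance from the summit to the nearest exon of the host gene, the peaks were put into 2 kinds. Of IGF2BP2 peaks, 36.4% lay within 50 nt of an exon, 8.32% at 51 to 500 nt and 49.5% beyond 1000 nt. For YTHDF2 the shares were 51.8%, 8.04% and 36.4%, and for YTHDC1 35.5%, 8.46% and 49.1%. Few summits therefore lay between the exon flank and the deep interior in any list. A limit of 100 nt, set after this pattern was seen, separates the exon-edge peaks from the interior peaks below.

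**Figure D1:**
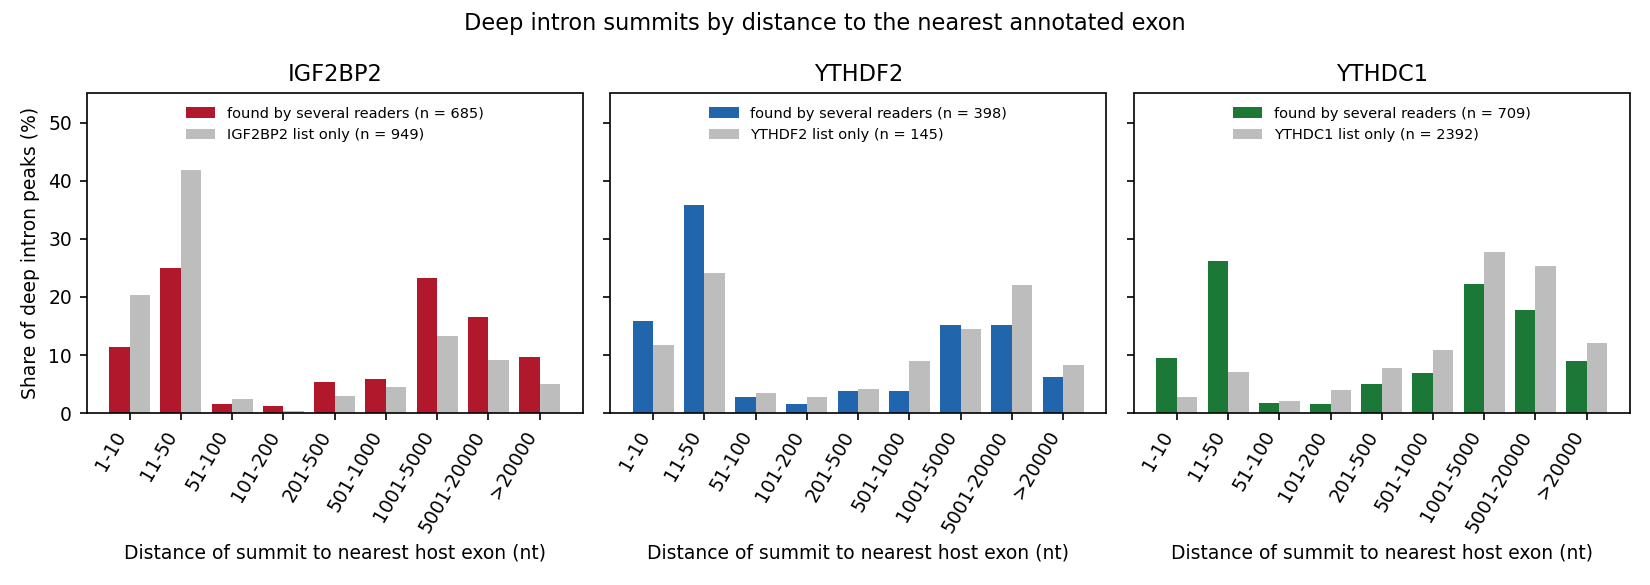
Share of deep intron peaks (percent) by the distance of the summit to the nearest annotated exon of the host gene (nt), in a panel for each reader, with peaks found by several readers in colour at the left and peaks of that list only in grey at the right. Each coloured series has 1 peak at 11 to 50 nt, with 25% for IGF2BP2, 35.9% for YTHDF2 and 26.1% for YTHDC1, and higher bars again beyond 1000 nt. The ranges widen with distance, so bars of different ranges do not compare counts per nt.

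Peaks found by several readers were set beside deep intron peaks of the same list that overlap no other list. For YTHDC1, 37.4% of shared peaks lay within 100 nt of an exon (33.8 to 41.1, 265 of 709), against 12.1% of YTHDC1-only peaks (10.8 to 13.5, 290 of 2392). For IGF2BP2 the order was the opposite, with 38.0% of shared peaks (34.3 to 41.7, 260 of 685), against 64.8% of IGF2BP2-only peaks (61.7 to 67.8, 615 of 949). For YTHDF2 the shares were 54.5% of shared peaks (49.5 to 59.5, 217 of 398) and 39.3% of YTHDF2-only peaks (31.3 to 47.8, 57 of 145). The intervals of the paired shares did not overlap in any of the 3 lists, but with 1 library a reader no test was possible. The shared peaks of IGF2BP2 and YTHDC1 lie largely at the same loci, 462 of this pair and 279 with all 3 readers. Their shares of 38.0% and 37.4% are therefore not independent. The opposite orders reflect the peaks of 1 list only, at 64.8% for IGF2BP2 and 12.1% for YTHDC1.

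Shared peaks were also higher in all 3 lists, while the exon-edge share was lower in shared peaks for IGF2BP2 and higher for the other 2 readers. Shared peaks had median folds of 7.81, 5.88 and 8.44 in the IGF2BP2, YTHDF2 and YTHDC1 lists, against 4.88, 3.96 and 5.63 for peaks of 1 list only. Among YTHDC1 peaks with a pileup of 8 or more, 28.2% of shared peaks (115 of 408) lay within 100 nt of an exon, against 7.85% of YTHDC1-only peaks (61 of 777). At a pileup of 2 to 3 the YTHDC1 shares were 60.2% (62 of 103) for shared peaks and 17.1% (124 of 725) for YTHDC1-only peaks, so the direction was the same in low and high peaks. For IGF2BP2 it was also the same at a pileup of 2 to 3, with 39.1% of shared peaks and 67.9% of IGF2BP2-only peaks. At a pileup of 8 or more the IGF2BP2 shares came nearer, 35.7% of shared peaks (30.8 to 40.8) and 44.4% of IGF2BP2-only peaks (35.4 to 53.5), with overlapping intervals. For YTHDF2 the order turned round in high peaks, with 34.1% of shared peaks (46 of 135) and 57.1% of YTHDF2-only peaks (4 of 7), the second resting on 7 peaks.

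The class of a locus went with its position. Loci of IGF2BP2 with YTHDF2 were mostly exon-edge loci, 119 of 142 or 83.8% (76.7 to 89.4). Loci of IGF2BP2 with YTHDC1 were mostly interior, with 171 of 462 or 37.0% at an exon edge (32.6 to 41.6). Loci of all 3 readers lay between, at 58.8% (52.8 to 64.6, 164 of 279), and loci of YTHDF2 with YTHDC1 had 47.4% (35.8 to 59.2, 36 of 76). At equal list length the share for IGF2BP2 with YTHDC1 was 17.5% (11.1 to 25.8), and at a −log10 q of at least 5 that for YTHDF2 with YTHDC1 was 30% (16.6 to 46.5). Over all classes 490 loci lay at an exon edge, 466 were interior and 3 held summits of each kind. The classes also differed in loci with a partner that does not qualify, nearly always one with its summit in an exon. These were 75 of 142 for IGF2BP2 with YTHDF2, 112 of 462 for IGF2BP2 with YTHDC1 and 130 of 279 for all 3 readers. For YTHDF2 with YTHDC1 they were 23 of 76. The part of such loci in the exon-edge shares was not tested.

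**Figure D2:**
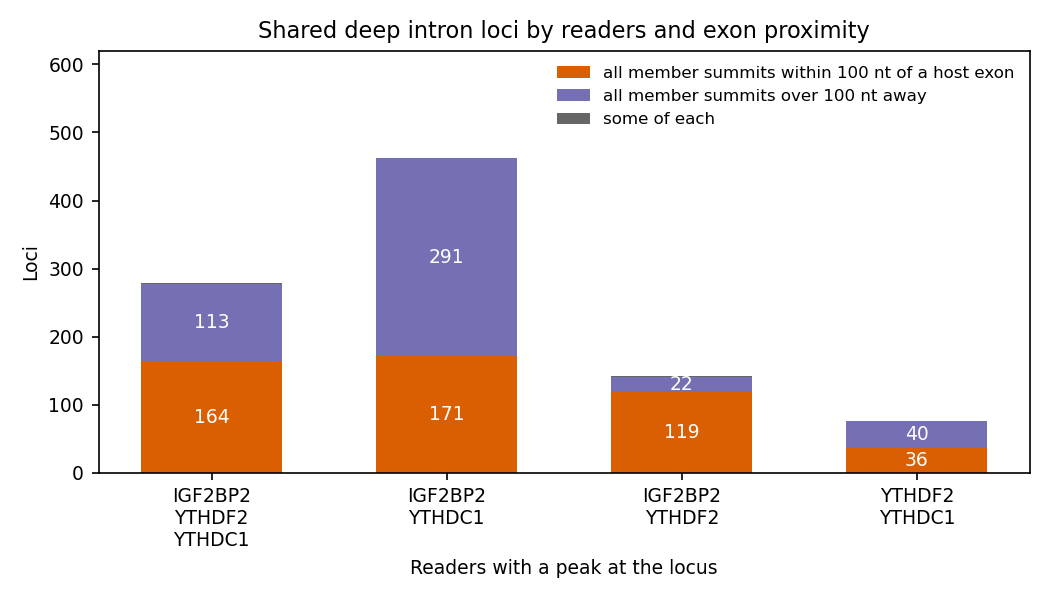
Number of shared deep intron loci by the readers with a peak there, split by whether all qualifying summits lay within 100 nt of a host exon (orange), all lay farther away (violet) or some of each (grey). The pair of IGF2BP2 and YTHDC1 has 291 interior and 171 exon-edge loci, and the pair of IGF2BP2 and YTHDF2 has 22 and 119.

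At the exon edges, the qualifying summits sat just inside the intron. Their median distance from the exon was 18.5 nt for IGF2BP2, 19 nt for YTHDF2 and 20 nt for YTHDC1. The peak of another reader at such a locus could have its summit in the exon. Over all loci, 424 of the 425 partner summits that do not qualify lay in an annotated exon. How many exon-edge loci held such a partner was not counted. Of the 473 exon-edge loci whose nearest exon was at least 50 nt long in a coding transcript, 49.7% had the exon upstream of the leading summit and 50.3% had it downstream. The ends of introns at the 5' and the 3' splice site were thus met about equally often. A part of an annotated exon lay under 39.0% of all shared peaks in the IGF2BP2 list, 55.8% in the YTHDF2 list and 38.2% in the YTHDC1 list, beside the 38.0%, 54.5% and 37.4% with a summit at an exon edge. The exon-edge introns were short, with a median of 750.5 nt for IGF2BP2, 824 nt for YTHDF2 and 749 nt for YTHDC1.

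The 50 nt exon ends beside the exon-edge loci held more purines than other exon ends of the same genes. GGAC was present in 24.3% of 473 ends (20.5 to 28.4), against 20.8% of 14105 other exon ends more than 2000 nt from the 5' end of the same genes (20.1 to 21.5), so its share differed little. The longer GGACT, which contains GGAC, was in 3.81% (2.27 to 5.95), against 4.81% of the other ends (4.47 to 5.18). GAGGAG was in 19.2% (15.8 to 23.1), against 6.39% (5.99 to 6.80), and GAAGAA in 16.1% (12.9 to 19.7), against 7.86% (7.42 to 8.31). A stretch with 35 or more purines among its 50 bases made up 26.0% of the ends (22.1 to 30.2), against 7.69% (7.25 to 8.14). Mean purine content was 62.1%, against 55%, while G+C content was 52.9%, against 51.2%. Motifs were sought on the RNA strand of the gene only, and the hexamers may share bases with each other. The hexamers, the purine content and the limit of 35 purines were all picked after the 6 ends printed above had been read. Those 6 ends are among the 473 counted, so these purine shares are a description.

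The same features at exon ends beside edge peaks of 1 list only depended on the list. GAGGAG was in 9.98% of 591 ends for IGF2BP2 only, 3.77% of 53 for YTHDF2 only and 12.4% of 250 for YTHDC1 only. GAAGAA was in 16.1% for IGF2BP2 only, the share seen at shared loci, and in 7.55% for YTHDF2 only and 6.80% for YTHDC1 only. GGAC varied less, at 24.4% for IGF2BP2 only, 18.9% for YTHDF2 only and 26.4% for YTHDC1 only. The part of peak height in the purine shares was not tested.

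**Figure D3:**
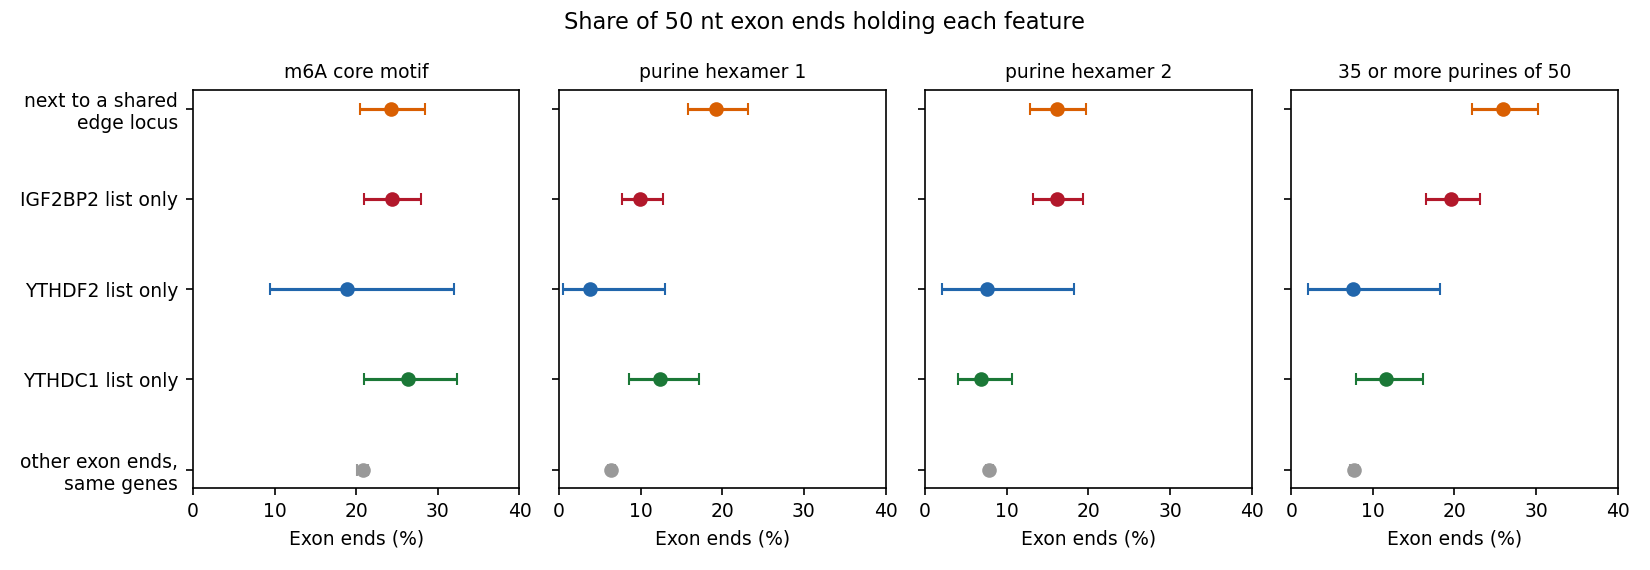
Share of 50 nt exon ends (percent, x axis) that hold the m6A core motif GGAC, the purine hexamers GAGGAG (1) and GAAGAA (2), or at least 35 purines, from exons beside shared exon-edge loci at the top, beside edge peaks of 1 list only, and from other exon ends of the same genes at the bottom. Points are shares and bars exact 95% intervals; the second and the last panels show the widest gap between the top and bottom rows, 19.2% against 6.39% and 26.0% against 7.69%.

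Loci were ranked by the lowest percentile of fold that any of their peaks reached within its own list. Among loci with all 3 readers, 5 of the first 6 were interior. Rnf220, a ubiquitin ligase gene, came first (chromosome 4, 117424674 to 117425100 in GRCm38), with folds of 58.3 (IGF2BP2), 29.0 (YTHDF2) and 52.9 (YTHDC1) and pileups of 171, 70 and 200. Its summits lay 49402, 49390 and 49396 nt from the nearest exon, so that all 3 fell within 12 nt of each other in an intron of 114131 nt. Nrros, which encodes a membrane protein that limits reactive oxygen species in phagocytes, had folds of 50.9, 23.1 and 64.8 (IGF2BP2, YTHDF2, YTHDC1, here and below) at chromosome 16, 32156103 to 32156347, 1037 nt from an exon.

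Cdk6, the G1 cyclin-dependent kinase gene, had folds of 38.5, 21.8 and 52.0 at chromosome 5, 3462466 to 3462685, in an intron of 41790 nt. Elf1, an ETS transcription factor gene, had folds of 72.1, 48.8 and 30.7 at chromosome 14, 79525934 to 79526411, 9961 nt from an exon. Within their own lists the Elf1 peaks stood at the 99.99 percentile for IGF2BP2, at the top for YTHDF2 and at the 98.27 percentile for YTHDC1. Cul1, the scaffold of SCF ubiquitin ligases, had folds of 29.8, 16.9 and 50.7 at chromosome 6, 47487384 to 47487656, 2340 nt from an exon.

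Exon-edge loci made up the rest of the first 10. U2af1, the small subunit of the factor that recognises the 3' splice site, had folds of 24.9, 18.4 and 25.6 at chromosome 17, 31648615 to 31648893, 35 nt from an exon in an intron of 79 nt. Sart1, a component of the spliceosomal tri-snRNP, had folds of 32.2, 14.0 and 29.6, 28 nt from an exon in an intron of 81 nt. The U2af1 and Sart1 introns were thus shorter than the peaks over them, which measured 252 to 279 bp at U2af1 and 293 to 471 bp at Sart1.

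At Ewsr1 and Plcb2 the summits of the lists were divided between intron and exon. Ewsr1, an RNA-binding protein gene of the FET family, had a YTHDF2 summit in the intron (fold 13.9), 11 nt from the exon upstream. Its IGF2BP2 and YTHDC1 summits (folds 25.7 and 49.8) lay in an exon across the intron. Plcb2, a phospholipase C gene, had IGF2BP2 and YTHDF2 summits in the intron (29.7 and 13.6) and the YTHDC1 summit in an exon (19.3). Anp32b and Hsp90aa1, whose exon ends are printed above, each had 1 intronic summit, of YTHDF2 (fold 12.5 at each). The summits of IGF2BP2 (18.2 and 62.4) and YTHDC1 (16.9 and 45.9) lay in exons. At Hsp90aa1 these exon summits lay across the intron from the printed exon end. Anp32b encodes an acidic nuclear phosphoprotein and Hsp90aa1 a cytosolic chaperone.

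**Figure D4:**
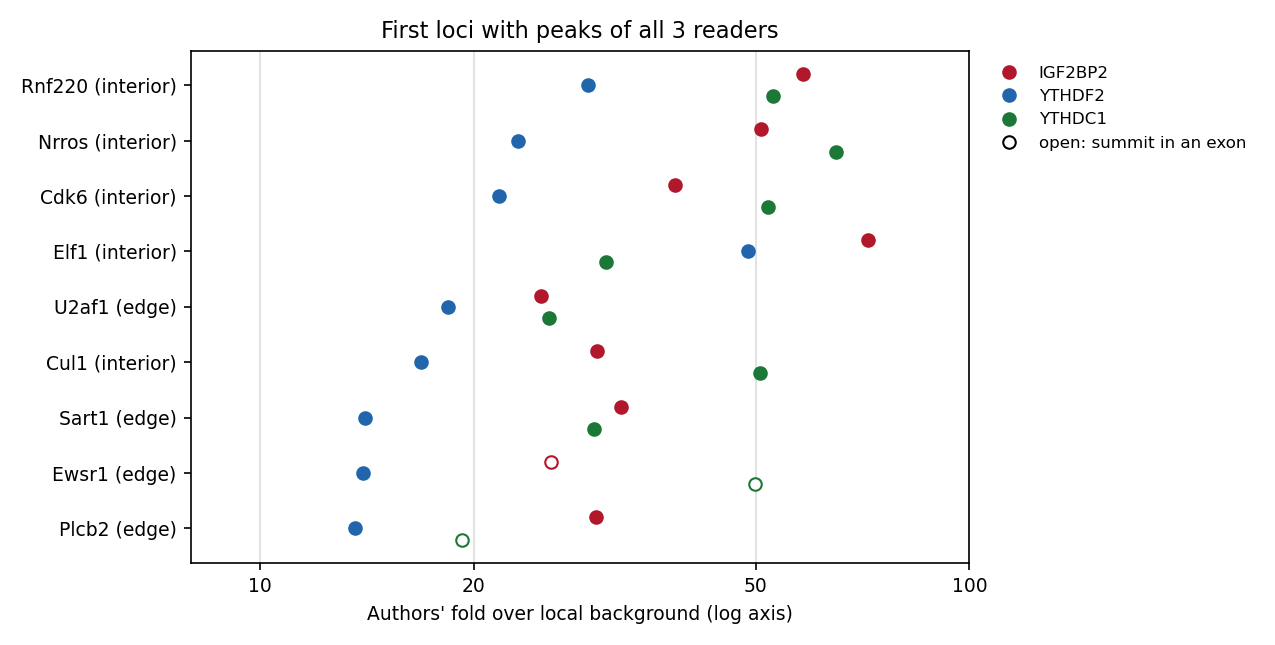
Authors' fold over local background (log axis) at 9 of the 10 first loci with peaks of all 3 readers, ranked from the top, with IGF2BP2 in red, YTHDF2 in blue and YTHDC1 in green, and open points for partners whose summit lay in an exon. The YTHDF2 folds run from 13.6 at Plcb2 to 48.8 at Elf1, and the 2 loci with open points, Ewsr1 and Plcb2, are exon-edge loci; folds of different lists are drawn side by side and not compared.

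All 5 first loci of IGF2BP2 with YTHDC1 were interior. Dgki, a diacylglycerol kinase gene, had folds of 79.3 for IGF2BP2 and 51.2 for YTHDC1 at chromosome 6, 37206674 to 37207653. This locus held 3 qualifying peaks, of which the highest in each list is given. The summits of those given lay apart, 23670 nt from an exon for IGF2BP2 and 24146 nt for YTHDC1. Sorbs2, which encodes a cytoskeletal adaptor, had 29.6 and 45.5 in the same order, and Pfkfb3, whose enzyme makes the glycolysis activator fructose-2,6-bisphosphate, had 25.8 and 57.9. Slc22a4, a carnitine and ergothioneine transporter gene, had 25.1 and 36.2, and the tyrosyl-tRNA synthetase gene Yars had 22.2 and 24.8. The distances of these 4 from an exon were 869, 6254, 5540 and 906 nt.

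Of the 5 first loci of IGF2BP2 with YTHDF2, 4 lay at an exon edge and 1 in an intron interior. Gripap1, an endosomal protein gene, had folds of 15.6 for IGF2BP2 and 9.78 for YTHDF2, 12 nt from an exon; here and at Stk4 the YTHDF2 summit lay in the exon. Stk4, a Hippo pathway kinase gene, had 13.4 and 9.12, Luc7l2, a gene of a U1 snRNP-associated splicing protein, 10.7 and 9.12, and Atp8b4, a phospholipid flippase gene, 19.7 and 8.90. Laptm5, a lysosomal membrane protein gene of blood cells, was the interior one, with 21.6 and 9.12. Its summits lay apart, 551 nt from an exon for IGF2BP2 and 225 nt for YTHDF2.

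The 5 first loci of YTHDF2 with YTHDC1 were all interior. Fam107b had folds of 10.1 for YTHDF2 and 12.1 for YTHDC1, the bZIP factor gene Atf2 had 9.49 and 11, and the endocytosis gene Fcho2 had 9.12 and 11.3. Zfp791, a zinc finger gene, had 15.5 and 9.97, and Dach1, a transcriptional cofactor gene, had 9.22 and 9.78. The Dach1 locus lay 2018 nt from the 5' end of the gene, near the limit of the rule. Among all qualifying peaks the nearest inside that limit were in Banf1 (2005 nt, YTHDF2 fold 3.92), Pou6f1 (2006 nt, YTHDC1 fold 5.81) and Ncbp3 (2017 nt, YTHDF2 fold 3.95). The nearest outside were in Icam1 (1999 nt, YTHDC1 fold 3.92, and 1994 nt, IGF2BP2 fold 3.94) and Elovl1 (1982 nt, YTHDC1 fold 7.85).

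Interior loci were spread over introns roughly by length. They lay in introns with a median of 17541 nt for IGF2BP2, 20099 nt for YTHDF2 and 17499 nt for YTHDC1. Of 466 interior loci, 35.4% (31.1 to 39.9) were in the longest intron of their gene, and that intron held a mean of 35% of the gene's intron length. Their median position was 46.1% of the way along the intron (42.6 to 51.7), near the middle. Genes with an interior locus had a median of 115755 nt of intron beyond the first 2000 nt, against 16408 nt over all 19069 protein-coding genes with such introns. Genes with an exon-edge locus had 23570 nt. The interior peaks were also the higher ones for YTHDC1, with a median fold of 9.45, against 6.78 at exon edges, and for YTHDF2 with 6.78, against 4.94, while for IGF2BP2 the medians were 7.75 and 7.88.

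Of those 19069 genes, 737 or 3.86% hosted a locus. A single locus was found in 587 genes and 2 or more in 150, and 37 of the 915 introns involved held 2 or more. Dock10, which encodes an exchange factor for the small GTPases Cdc42 and Rac, had 7 loci. One, 40405 nt from the 5' end, had folds of 45.8, 12.6 and 111, and 2 more lay in the same intron of 48829 nt, with IGF2BP2 folds of 8.84 and 5.35 and YTHDC1 folds of 36.2 and 23.2. The other 4 Dock10 loci had 2 readers each, 2 of them within 31 nt of an exon.

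The 4 genes that followed Dock10 differed in kind. Lrmda, a gene known from human oculocutaneous albinism, had 6 loci, all interior, 5 of them in 1 intron of 282837 nt. The YTHDC1 list had a peak at 5 of the Lrmda loci, the highest with a fold of 51.6. Cep128, a gene of centriole appendages, had 6 loci, of which 5 lay at exon edges. The IGF2BP2 folds at these ran from 6.90 to 19.6 where the summit was intronic, and were 3.94 and 31.6 where it lay in an exon. Coro7, a Golgi coronin gene, had 6 loci with low folds, at most 8.79. At most of the Coro7 loci the leading summit also lay inside another annotated gene. The lists have no strand, so the host gene of those loci is uncertain. Chd4, the ATPase of the NuRD chromatin complex, had 5 loci, all at exon edges and 4 with all 3 readers. At those 4 the YTHDC1 folds were 8.59 and 15.0 at intronic summits and 19.8 and 20.0 at exon summits. At the last 2 only the YTHDF2 summit was intronic. Col19a1, Myh9 and Pcnt also had 5 loci each, and Chd4 was taken before them by the rank of its best locus.

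**Figure D5:**
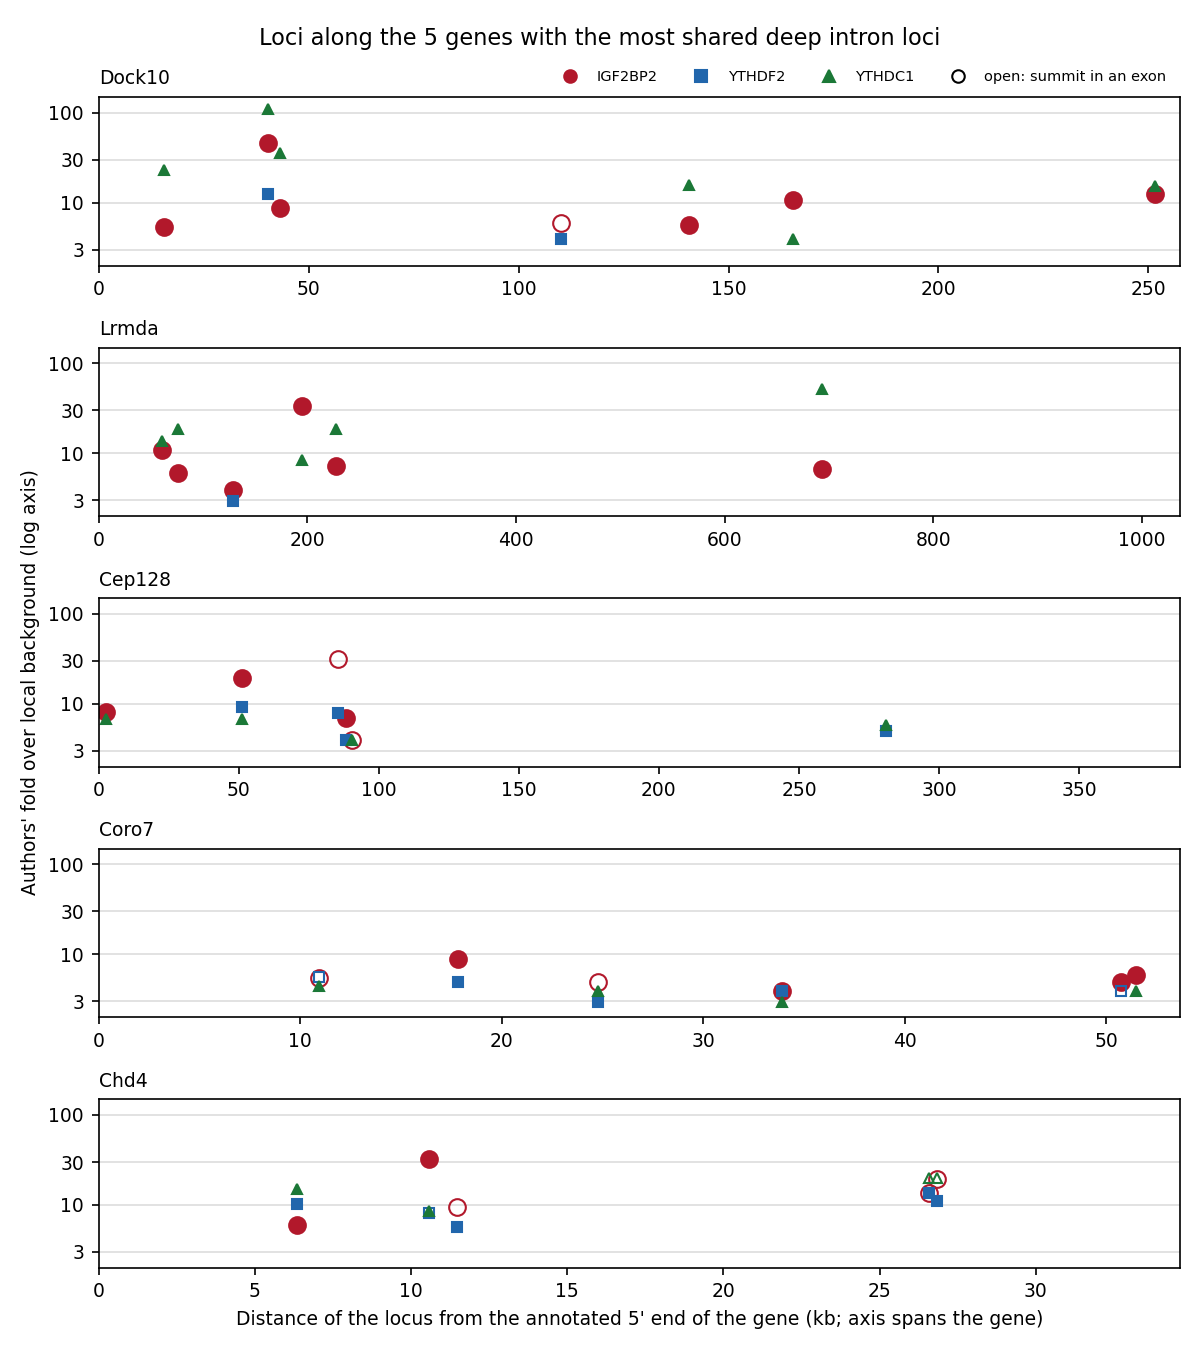
Authors' fold over local background (log axis) against the distance of each locus from the annotated 5' end of its gene (kb, each axis spans the gene) in the 5 genes with the most loci, with IGF2BP2 as circles, YTHDF2 as squares and YTHDC1 as triangles, open where the summit lay in an exon. The highest point is the YTHDC1 peak of Dock10 with a fold of 111, and the Coro7 points all lie at 8.79 or below.

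Genes of blood cell regulation and of RNA processing hosted loci more often than the background of 3.86%, as counts with no test. So did 2 lists of other cell types described below, the long neuronal genes at 30% and the stromal and endothelial genes at 16.7%. A share above the background was thus not particular to genes of blood cells or RNA processing. The lists were chosen with earlier results of these data known, and most hold genes with longer introns than the median gene. Of 33 haematopoietic transcription factor genes with such introns, 7 were hosts: Elf1, Myb, Mef2c, Foxp1, Etv6, Zeb2 and Tcf4. Myb had folds of 30.3, 10.0 and 15.5 for IGF2BP2, YTHDF2 and YTHDC1 at an exon edge 33 nt away, and Mef2c had 19.2 for IGF2BP2 and 18.4 for YTHDC1. Foxp1, a forkhead factor gene, had 3 interior loci with all 3 readers each, with folds of 14.3, 16.4 and 8.70 at the first, 9.52, 13.9 and 8.70 at the second and 7.32, 8.52 and 6.70 at the third. The YTHDF2 peaks of Foxp1 stood at the 96.33, 94.35 and 79.92 percentiles of their list and the YTHDC1 peaks at the 72.77, 72.77 and 54.29 percentiles of theirs.

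Of 28 cell cycle kinase and cyclin genes, 3 were hosts: Cdk6, Cdk8, the Mediator kinase gene, with 11.2, 18.9 and 9.50, and Cdk11b with 13.7, 6.88 and 4.86, of which only the YTHDC1 summit was intronic.

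Of 39 chromatin regulators, 8 were hosts. Smarca2, an ATPase of SWI/SNF complexes, had an interior locus with folds of 14.3, 5.89 and 55.8. Arid1b, a SWI/SNF subunit gene, had 4 interior loci, 1 of them with 4.96, 6.78 and 34.3. All 5 Chd4 loci, in contrast, were at exon edges.

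Of 36 signalling kinase and phosphatase genes, 7 were hosts, among them Prkca (11.6 for IGF2BP2 and 32.6 for YTHDC1, interior) and Prkcd (27.6 for IGF2BP2 at an exon edge, with exon summits of 9.12 for YTHDF2 and 2.94 for YTHDC1), both protein kinase C genes. Of 22 glycolysis genes, 7 were hosts. Besides Pfkfb3 these included the pyruvate kinase gene Pkm, with an intronic YTHDC1 summit of 8.59 beside exon summits of 36.7 for IGF2BP2 and 9.12 for YTHDF2, and the hexokinase gene Hk3, with 8.02 for IGF2BP2 and 8.44 for YTHDC1.

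Of 34 RNA-binding and splicing protein genes, 14 were hosts, the highest share of the lists at 41.2%, and 15 of their 23 loci lay at exon edges. Rbm25, a splicing regulator gene, had folds of 43.3, 16.2 and 14.8, 14 nt from an exon, with the YTHDF2 summit in the exon. Hnrnpc had an intronic YTHDF2 summit of 7.11 beside an exon summit of 33.4 for IGF2BP2. Celf2, a splicing factor gene, had an interior locus with 13.9, 6.96 and 33.2. Of 22 genes of m6A writers, erasers and readers, 2 were hosts, Hnrnpc and Hnrnpa2b1, which are also counted in the splicing list.

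Among markers of other cell types, loci were found in 9 long neuronal genes and 2 stromal genes. Of 30 long neuronal genes, 9 were hosts, all with 1 interior locus and 7 with 2 readers. Their median intron length beyond the first 2000 nt was 1075649 nt, and they had 0.262 interior loci per Mb of such intron, against 0.492 per Mb over all genes. Gria1, an AMPA receptor subunit gene, had the highest folds of these, 17.6 for IGF2BP2 and 37.6 for YTHDC1. Pdgfrb and Pdgfra, 2 of 12 stromal and endothelial genes, had folds of 11.3, 6.38 and 65.3, and of 8.91, 8.21 and 9.45. That list had 3.38 interior loci per Mb of such intron, above the 0.492 per Mb over all genes, but the value rests on 2 loci. Of 17 lymphoid, 11 erythroid and megakaryocyte and 12 mature myeloid marker genes with such introns, 0 were hosts. At the 3.86% over all genes each of these short lists would hold less than 1 host, so the counts of 0 do not set them apart. A peak is not a level of expression, and the part of other cell types in these loci was not tested.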

How the data were processed

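Peak lists of 3 reader immunoprecipitates, 1 library each, were used; the input has no list of its own here. HISAT2, Trim Galore and bcl2fastq 2.17 with build GRCm38 are named in the submitters' processing notes; the peak caller is not given in the sources used here. Each deposited list holds, per peak, a score, a fold (ratio) of pileup over background, and p-values and q-values as −log10. Per the file headers, other columns are the peak length and the signal (pileup) at its summit. All are the authors' values, used only to describe, rank or filter within a list. No listed −log10 q was below 2.01 (IGF2BP2), 2.05 (YTHDF2) or 2.02 (YTHDC1).

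Summits were placed on GENCODE M21 with Python 3.11.15, pandas 2.3.3 and numpy 2.4.6. The host is the protein-coding gene with the nearest annotated exon; the lists have no strand, so overlapping genes are uncertain. Overlapping peaks were joined into loci with networkx 3.6.1, and the highest fold of each list at a locus is given. Shares have exact Clopper-Pearson 95% intervals and medians exact order-statistic intervals (scipy 1.17.1). No test was run, since each reader has 1 library. The local background was taken as the pileup plus 1, over the fold, minus 1. On simulated peaks the member call was right for 350 of 350.

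Named are the 10 first loci with all 3 readers (1 is not reported here, nor is 1 gene list), the 5 first of each pair, the 5 genes with the most loci, 2 to 4 hosts with the highest folds of each gene list, and the loci at the limit of the rule. Nin, Rbbp6 and Cd47 are named for their sequences, and Etv6, Zeb2, Tcf4, Col19a1, Myh9 and Pcnt to complete a count. The members and gene lists were chosen with earlier results of these data known. Sequence around interior summits and repeats were not analysed here.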

Additional observations from a re-analysis of the deposited data

How the results depend on the processing

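Limits: each reader has 1 library, the intervals cover counting error only, low pileups limit the weaker peaks, and the lists carry no strand. No paired analysis was possible because each group has 1 library. The alternatives for GGAC around summits and for repeats were not run, since intron sequence was not used here.

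Of 208 values under the alternatives, covering 22 results, 154 stayed within the spread used as tolerance and 54 moved. None moved with autosomes and X only, with every host over 2000 nt, with 5000 nt from the 5' end, or with an exon edge of 50 or 200 nt, the last 2 added after the data were seen.

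At a fold of at least 5 the members were 442 for IGF2BP2, 214 for YTHDF2 and 458 for YTHDC1, in 565 loci, 173 of them with all 3 readers. The shared shares were 50.5%, 87.0% and 24.6%, the median folds 9.68, 8 and 10.7, and the YTHDF2 distance to an exon 307.5 nt. The exon-edge shares were 43.0% of all loci, 31.7% for IGF2BP2 with YTHDC1, 74.1% for IGF2BP2 with YTHDF2 and 35.5% for YTHDF2 with YTHDC1.

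With the 2834 peaks of highest −log10 q in each list, the members were 312 for IGF2BP2 and 269 for YTHDC1, in 452 loci, 131 with all 3 readers. The shared shares were 54.9% for IGF2BP2, 51.7% for YTHDF2 and 33.6% for YTHDC1, so the lead of YTHDF2 was lost. The median folds were 11.7, 6.61 and 15.2, the YTHDC1 distance to an exon 1445 nt and the summit distance of IGF2BP2 and YTHDC1 11 nt. The exon-edge shares were 51.1% with all 3 readers, 17.5% for IGF2BP2 with YTHDC1 and 35.4% for YTHDF2 with YTHDC1.

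With summits within 50 nt, 181 loci had all 3 readers, the shared shares were 34.5%, 58.7% and 18.3%, and the median folds 8.03 for IGF2BP2 and 8.83 for YTHDC1. Summit distances were 8 nt for IGF2BP2 and YTHDF2 and 11 nt for IGF2BP2 and YTHDC1. The exon-edge shares were 44.8% of all loci, 47.5% with all 3 readers and 30.4% for IGF2BP2 with YTHDC1.

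At a −log10 q of at least 5 the YTHDC1 share was 24.7%, the median folds 8.84, 6.80 and 9.78, and the exon-edge shares 47.8% of all loci and 30% for YTHDF2 with YTHDC1. With exons of other genes allowed the distances to an exon were 1273 nt for IGF2BP2 and 312 nt for YTHDF2, and the exon-edge shares 45.8% of all loci, 51.4% with all 3 readers and 75.2% for IGF2BP2 with YTHDF2. With an overlap of at least 50% of the shorter peak the YTHDF2 share was 69.2%. IGF2BP2 with YTHDF2 had the highest exon-edge share of the 4 classes under every alternative run. The cause of these moves was not tested.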

Other observations

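Some further loci with all 3 readers ranked below the first 10. They are examples picked after their values were seen and stand for no gene group, and all folds are given in the order IGF2BP2, YTHDF2, YTHDC1. Pabpc1, the cytoplasmic poly(A)-binding protein gene, had folds of 23.3, 12.6 and 14.3 at 5 nt from an exon (GRCm38 chromosome 15, 36600861 to 36601103). Rbm3, a cold-inducible RNA-binding protein gene, had 14.5, 10.9 and 18.8 at 13 nt from an exon, in an intron of 96 nt. Msn, which encodes moesin, a linker of actin to the membrane, had 16.6, 10.8 and 23.2 at 42 nt from an exon. Interior loci at this height included Ppp3ca, the catalytic subunit of calcineurin, with 14.6, 12.3 and 33.6 at 9021 nt from an exon, and Baz1a, a subunit of ISWI chromatin remodellers, with 14.3, 12.5 and 41.3. Dgkg, a diacylglycerol kinase gene like Dgki, had 19.4, 10.8 and 43.1.

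Of the 1792 peaks, 1032 (57.6%) lay over no annotated exon and 739 (41.2%) over a coding gene's exon only. Processed pseudogenes inside introns lay under 9 peaks. Some loci depend on very long gene models. The 2 Fgfr2 loci (chromosome 7, 130834445 to 130834619 and 131576386 to 131576611) had IGF2BP2 summits 568291 and 1310243 nt from the nearest Fgfr2 exon, and a YTHDC1 summit assigned to Gm20388 lay 1918555 nt from an exon.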
